A study of Xenopus laevis with 3 samples.

Results

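The non-cytochrome P450 phase I enzymes of the liver oxidise, reduce or hydrolyse drugs, steroids, retinoids, aldehydes and amines. The genes described here are those whose platform symbol stands for an alcohol, aldehyde, retinol or hydroxysteroid dehydrogenase, a carbonyl reductase, a flavin monooxygenase, an amine, pyrimidine or quinone oxidoreductase, an epoxide hydrolase, a paraoxonase or a cytochrome b5. The copies were matched by symbol, and the group of enzymes was picked with earlier results of these data known. Their 108 probe sets fall on 77 gene copies, out of 11303 copies with a single symbol on the array. Xenopus laevis is an allotetraploid frog, and .L and .S denote gene copies from its long and its short chromosome set. Of the 77 copies, 53 were .L copies, 23 were .S copies and 1 had no suffix. Where a copy had several probe sets, the one with the highest mean over the arrays was used, and no copy was left out for a low level.

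Livers of female frogs were measured after intraperitoneal injection of pregnenolone at 50 mg/kg, of artemisinin at 200 mg/kg, or of the solvent DMSO, in which both compounds were dissolved. The injections were given on 2 consecutive days, to 3 frogs for each compound, and the livers were taken 24 h after the last one. The frogs were kept in water at 22 °C. The number of DMSO frogs and the ages of the frogs are not given in the sources used here. RNA of a group was pooled, so each group is 1 Affymetrix array and no value has a replicate error. Differences between arrays were therefore not tested, and spread between frogs was not measured. The study looked for target genes of xlCAR, the frog relative of the constitutive androstane receptor (CAR), a nuclear receptor that regulates drug metabolism in mammals. Artemisinin is a drug against malaria, and pregnenolone a steroid from which steroid hormones are made. Their doses differ, so a difference between them is one between these 2 treatments and not between compounds at a matched dose.

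These enzymes complement the cytochrome P450 enzymes. Alcohol dehydrogenases turn alcohols into aldehydes, and aldehyde dehydrogenases turn aldehydes into acids. Retinol and hydroxysteroid dehydrogenases move hydrogen on and off retinoids and steroids, which sets how much active hormone is present. Flavin monooxygenases oxidise nitrogen and sulphur atoms of drugs, hydrolases open epoxides and lactones, and cytochrome b5 with its reductases feeds electrons to P450 enzymes and lipid desaturases.

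All values are log2 expression values after robust multiarray averaging (RMA), and a difference is that of 2 log2 values. The arrays had medians between 5.60 and 5.62, and the mean over the arrays was 5.61 for the median probe set. Hepatocyte genes such as those of fibrinogen and transferrin were abundant, and the summed level of 16 hepatocyte marker copies was 17.09 with pregnenolone, 17.23 with artemisinin and 17.17 with DMSO (log2). Single hepatocyte copies differed more than this sum, from -1.86 (ttr.L) to 2.51 (apoa1.L) with pregnenolone. Summed pancreas, smooth muscle, stellate and biliary, and leukocyte markers were lower in both treated groups than with DMSO, but not every copy was. The summed level of 22 exocrine pancreas marker copies was 9.34 with pregnenolone and 9.28 with artemisinin, against 13.30 with DMSO. For 16 smooth muscle, stellate and biliary copies it was 11.98 with pregnenolone and 12.02 with artemisinin, against 12.65 with DMSO. Of these 16, 7 were at least 1.5-fold lower with each compound, while epcam.S, krt19.L and sox9.L lay within 0.21 of DMSO. Over all named copies 3.75% were at least 1.5-fold lower with pregnenolone and 2.26% with artemisinin. Leukocyte markers, 7 copies, stood at 12.13 with pregnenolone and 12.16 with artemisinin, against 12.51 with DMSO. Of these 7, 1 was at least 1.5-fold lower with pregnenolone and 0 with artemisinin, and coro1a.S and mpo.S were not lower with either. Erythrocyte markers, 10 copies, stood at 15.54 with pregnenolone and 15.38 with artemisinin, against 15.48 with DMSO, a sum carried by the globin copies hba1.S and hbg1.L. In pooled tissue, fewer cells of a type and less RNA per cell cannot be told apart. The part of these markers in the differences from DMSO below was not tested.

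With pregnenolone the members were more often lower than higher. Of 77 copies, 12 were at least 1.5-fold lower than with DMSO, which is 15.6%, while 3.75% of all 11303 named copies were. At least 1.5-fold higher were 5, or 6.49%, while 4.64% of all named copies were. The 12 lower copies came from 7 of the 8 families, all except the cytochrome b5 symbols. At 2-fold, 5 members were lower and 0 higher, while 1.06% and 1.44% of all named copies were. These 2-fold counts rest on narrow margins, since fmo5.2.S was at -1.012 and cyb5b.L at 0.9915. After median centring they were at -0.998 and 1.005, so fmo5.2.S fell short of 2-fold and cyb5b.L passed it. The median difference of the members was -0.059, and that of all named copies was 0.00. Beside these differences, 4 of the 16 hepatocyte marker copies were also at least 1.5-fold lower with pregnenolone and 1 was higher. Lower copies were not particular to the members among genes of drug metabolism. Of 39 copies listed as conjugating enzymes, 7 were lower and 3 higher. Among 33 copies of CYP families 1 to 4, P450 reductase and AKR1 aldo-keto reductases, 5 were lower and 5 higher.

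With artemisinin fewer members differed from DMSO. At least 1.5-fold higher were 4 of 77, or 5.19%, while 2.35% of all named copies were. At least 1.5-fold lower were also 4, while 2.26% of all named copies were. At 2-fold, 0 members were lower and 1 higher, while 0.557% and 0.947% of all named copies were. The median difference was -0.0078. Both comparisons share the DMSO array. Beside these differences, erythrocyte markers had a median difference of -0.61 with artemisinin, and 5 of the 10 copies were lower by 1.5-fold or more while 0 were higher. Of the 16 hepatocyte marker copies 3 were higher and 0 lower.

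Among the probe sets at or above the median probe set lay 62 of the 77 members. Of these 62, 11 were at least 1.5-fold lower with pregnenolone, or 17.7%, while 5.03% of the 7480 named copies of that level were, and 4 were higher (6.45%, while 6.22% were). With artemisinin 4 of the 62 were lower, while 2.98% of the named copies of that level were, and 3 were higher (4.84%, while 2.99% were).

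**Figure D1:**
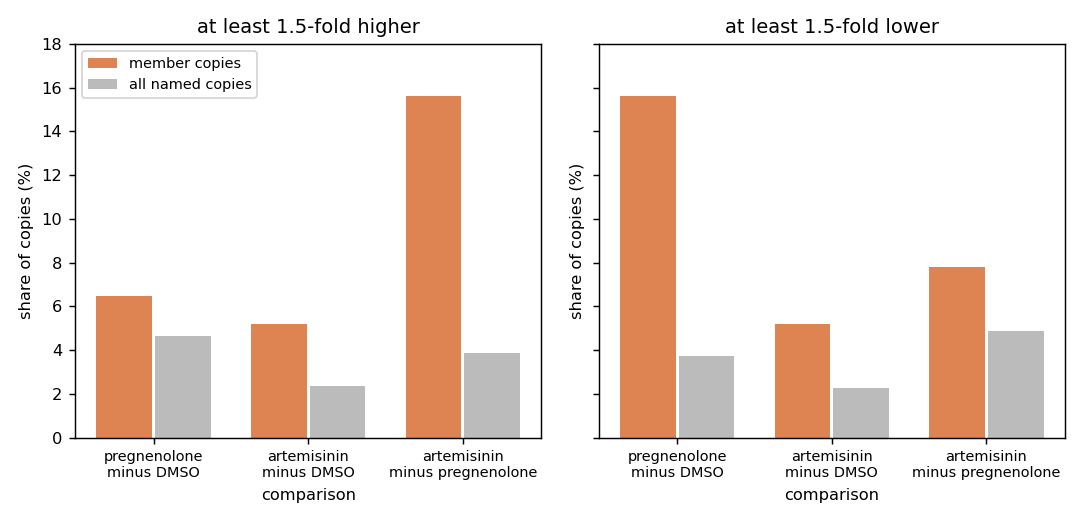
Bars show the share of gene copies, in percent, that differed by at least 1.5-fold, for the 77 members and for all 11303 named copies, in each comparison. The lower share with pregnenolone is 15.6% of the members and 3.75% of all named copies.

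**Figure D2:**
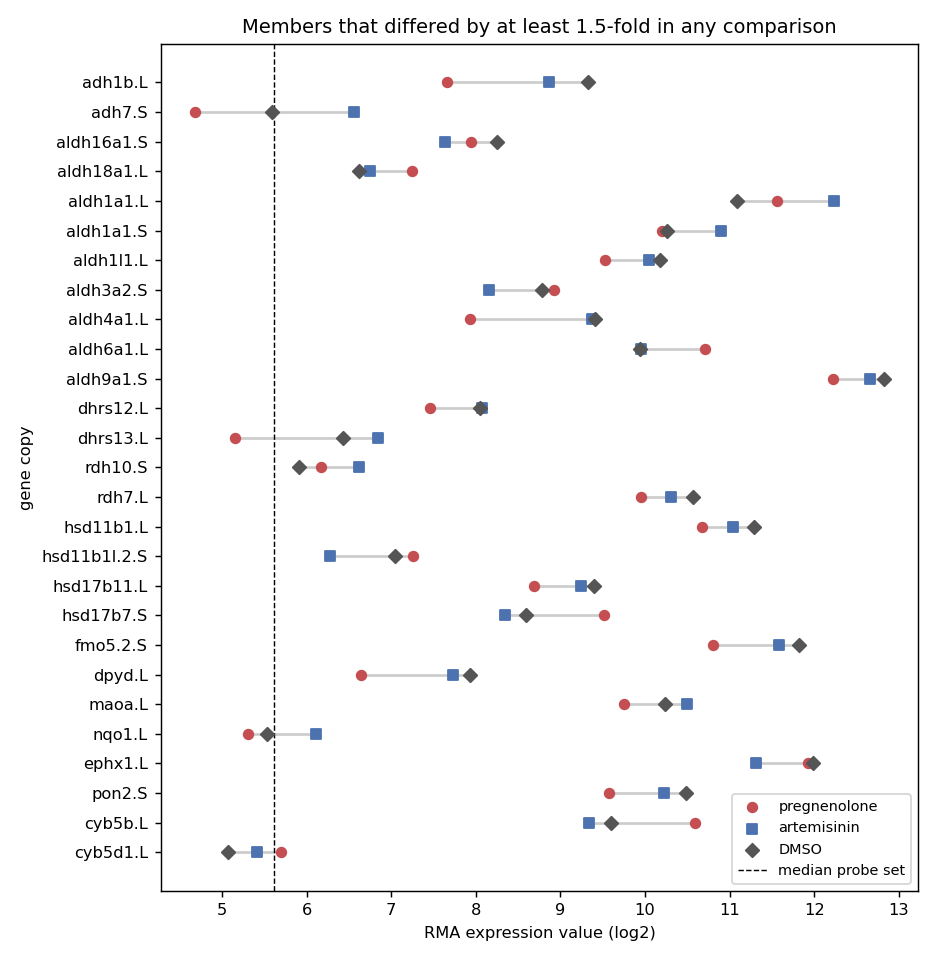
Each row is 1 of the 27 member copies that differed by at least 1.5-fold in any of the 3 comparisons, with its log2 expression value on the pregnenolone, artemisinin and DMSO arrays. The pregnenolone point lies at the left end for adh1b.L, aldh4a1.L, dpyd.L and fmo5.2.S, and at the right end for cyb5b.L and hsd17b7.S.

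Of the 6 alcohol dehydrogenase copies, 2 were at least 1.5-fold lower with pregnenolone and 0 higher, while 3.75% and 4.64% of all named copies were. These shares are the background for the pregnenolone counts of every family below. The families hold 3 to 20 copies, so a count of a few copies says little about a family. The gene adh1b.L (Entrez gene 432057), named after a mammalian class of ethanol-oxidising enzymes, had a value of 7.65 with pregnenolone, 8.87 with artemisinin and 9.33 with DMSO. It was 3.20-fold lower with pregnenolone (log2 difference -1.68) and within 1.5-fold with artemisinin (-0.46). This was the lowest difference of all 77 members. The gene adh7.S (446738), whose mammalian namesake oxidises retinol and ethanol, had 4.68 with pregnenolone, 6.56 with artemisinin and 5.59 with DMSO. It lay on opposite sides of DMSO, 1.88-fold lower with pregnenolone and 1.96-fold higher with artemisinin. Its DMSO and pregnenolone values are below the median probe set, so the size of both differences depends on the background.

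The other alcohol dehydrogenases lay close together. The gene adh1c.S had 11.42 with pregnenolone, 11.49 with artemisinin and 11.65 with DMSO. For adh5.L, the glutathione-dependent formaldehyde dehydrogenase, the values were 9.53 with pregnenolone, 9.51 with artemisinin and 9.74 with DMSO. Differences of these copies were between -0.16 and -0.24. The probe sets of adh1a.S (2.56) and adh4.L (4.97) gave the same value on all arrays, below the median probe set.

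Aldehyde dehydrogenases differed in both directions. Of 16 copies, 3 were lower and 2 higher with pregnenolone, and 2 were lower and 2 higher with artemisinin. Over all named copies 3.75% were lower and 4.64% higher with pregnenolone, and 2.26% and 2.35% with artemisinin. The family medians were 0.00 with pregnenolone and -0.015 with artemisinin. Its members act on different aldehydes, and the copies are described below by what they act on.

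Both copies of the retinal-oxidising aldh1a1 were higher with artemisinin. The gene aldh1a1.L (397728) makes retinoic acid from retinal. It had 11.56 with pregnenolone, 12.23 with artemisinin and 11.09 with DMSO, so it was 2.21-fold higher with artemisinin and 1.39-fold higher with pregnenolone. Its second probe set gave 9.65 with pregnenolone, 10.37 with artemisinin and 9.25 with DMSO, with differences of 1.12 for artemisinin and 0.40 for pregnenolone. The copy aldh1a1.S (394296) had 10.20 with pregnenolone, 10.89 with artemisinin and 10.25 with DMSO. It was 1.56-fold higher with artemisinin, and its difference with pregnenolone was -0.059. The relatives aldh1a2.L and aldh1a3.L, which also make retinoic acid, did not pass 1.5-fold. With artemisinin aldh1a2.L differed by -0.15 and aldh1a3.L by 0.31, and with pregnenolone they differed by 0.047 and 0.00.

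Aldehyde dehydrogenases of amino acid, folate and carnitine metabolism passed 1.5-fold with pregnenolone for some copies, and none did with artemisinin. The gene aldh4a1.L (100036784), a mitochondrial enzyme of proline breakdown, had 7.93 with pregnenolone, 9.38 with artemisinin and 9.41 with DMSO. It was 2.79-fold lower with pregnenolone, and its difference with artemisinin was -0.029. Its value used a probe set that may bind related transcripts. Without such probe sets the difference with pregnenolone was -0.78, and another of its probe sets gave -2.43. By contrast aldh18a1.L (444469), which starts proline synthesis, had 7.24 with pregnenolone, 6.75 with artemisinin and 6.62 with DMSO. That is 1.54-fold higher with pregnenolone.

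The gene aldh6a1.L (734956), an enzyme of valine breakdown, had 10.71 with pregnenolone, 9.95 with artemisinin and 9.94 with DMSO, 1.70-fold higher with pregnenolone. As the mean of its probe sets, of which the other is near background, the difference was 0.38. Its copy aldh6a1.S had 9.13 with pregnenolone, 8.64 with artemisinin and 9.11 with DMSO, with differences of 0.011 for pregnenolone and -0.48 for artemisinin. The folate enzyme gene aldh1l1.L (444321) had 9.52 with pregnenolone, 10.05 with artemisinin and 10.18 with DMSO, 1.57-fold lower with pregnenolone. The gene aldh9a1.S (379229), which acts in carnitine synthesis, had 12.22 with pregnenolone, 12.66 with artemisinin and 12.82 with DMSO, 1.52-fold lower with pregnenolone. After quantile normalization its difference was -0.55, short of 1.5-fold. The lysine breakdown gene aldh7a1.L stayed within 1.5-fold at the probe set used (-0.075 with pregnenolone), and its second probe set gave -1.12.

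Some copies of this family were lower with artemisinin. The gene aldh3a2.S (443767) encodes the fatty aldehyde dehydrogenase. It had 8.92 with pregnenolone, 8.16 with artemisinin and 8.79 with DMSO, 1.55-fold lower with artemisinin. Its copy aldh3a2.L had a difference of -0.17. The copy aldh16a1.S (734715) had 7.94 with pregnenolone, 7.64 with artemisinin and 8.25 with DMSO, 1.53-fold lower with artemisinin, while aldh16a1.L had a difference of 0.00. The value of aldh16a1.S rests on 1 probe set of the kind that matches several transcripts. The remaining copy, aldh3b1.L, had a difference of 0.23 with artemisinin at a level below the median probe set.

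**Figure D3:**
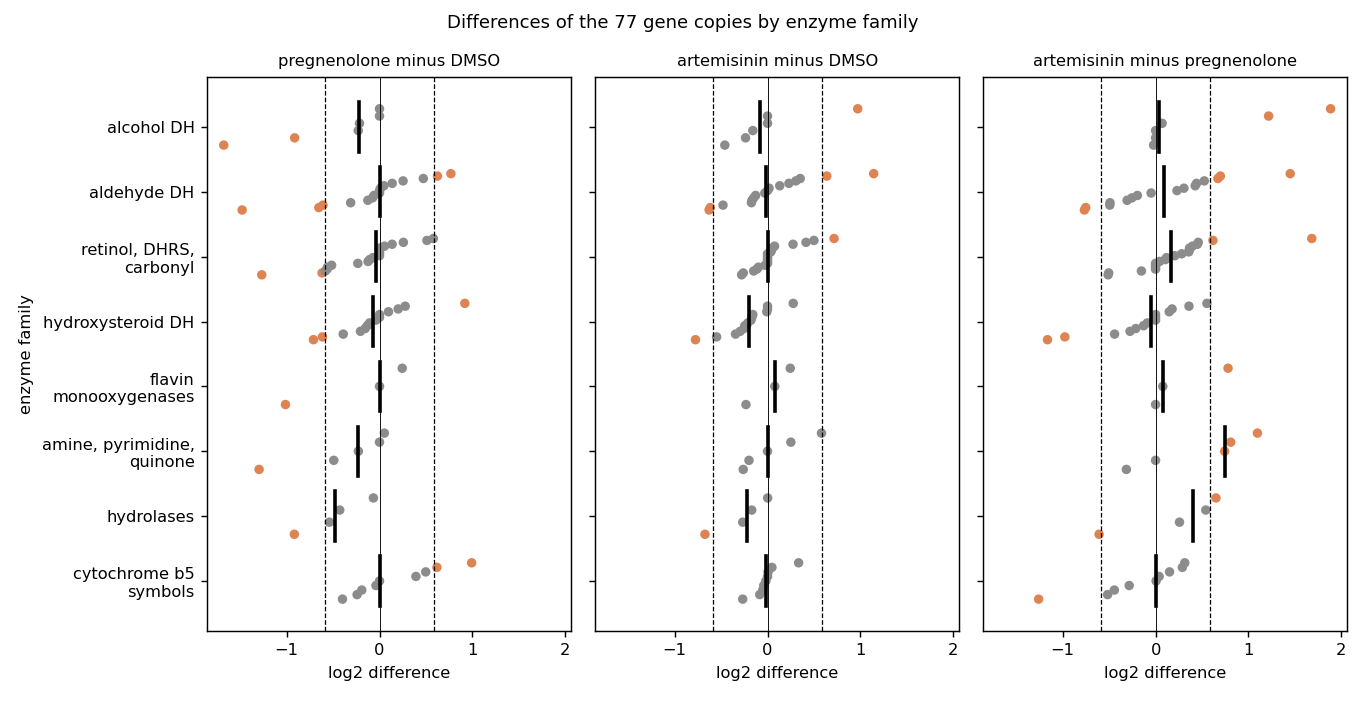
Each point is 1 of 77 gene copies, placed by its log2 difference in each of the 3 comparisons and grouped by enzyme family; black bars are family medians and dashed lines mark 1.5-fold. Filled orange points are past 1.5-fold, and with pregnenolone most of these lie left of 0.

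Retinol dehydrogenases, DHRS enzymes and carbonyl reductases had 20 copies. With pregnenolone 2 were lower and 0 higher, while 3.75% and 4.64% of all named copies were. With artemisinin 1 was higher and 0 lower, while 2.35% and 2.26% of all named copies were. The short-chain dehydrogenase gene dhrs13.L (494661) had 5.16 with pregnenolone, 6.84 with artemisinin and 6.43 with DMSO, 2.41-fold lower with pregnenolone. Its pregnenolone value is below the median probe set. The gene rdh7.L (373788) had 9.95 with pregnenolone, 10.31 with artemisinin and 10.57 with DMSO, 1.53-fold lower with pregnenolone. In mice the enzyme of this name oxidises retinol and steroids.

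Several further copies of this group lay just short of 1.5-fold with pregnenolone. These were dhrs12.L (-0.58), dhrs4.L (-0.56), dhrs3.L (-0.56), whose enzyme turns retinal back into retinol, and dhrs11.S (-0.52). In the other direction dhrs7.L was at 0.58. The other probe sets of dhrs11.S gave -0.62 and -0.016 with pregnenolone. The copy dhrs3.L had 8.84 with pregnenolone, 9.12 with artemisinin and 9.40 with DMSO.

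The higher copy with artemisinin was rdh10.S (431995), whose enzyme makes retinal from retinol. It had 6.16 with pregnenolone, 6.62 with artemisinin and 5.91 with DMSO, 1.64-fold higher. Its copy rdh10.L had 7.77 on the artemisinin and DMSO arrays and 7.67 on the pregnenolone array. Of the carbonyl reductases, which reduce quinones and ketones, cbr1.2.S was at 0.50 with artemisinin. Neither cbr1.1.S (0.043) nor cbr4.L (-0.098) came near 1.5-fold. The copies dhrs9.L, rdh13.L, rdh5.S and rdh7.2.L gave equal values on all arrays, in turn at 5.15, 5.98, 5.36, 4.89. The others were rdh11.S, rdh16.L, rdh5.L and rdh9, with differences between -0.23 and 0.51.

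Hydroxysteroid dehydrogenases had 14 copies. With pregnenolone 2 were lower and 1 higher, while 3.75% and 4.64% of all named copies were. With artemisinin 1 was lower and 0 higher, while 2.26% and 2.35% of all named copies were. With artemisinin the median was -0.20, and that of all named copies was 0.00. This was not particular to the family, since the hydrolases had a median of -0.22. The 62 members at or above the median probe set had -0.11. The gene hsd11b1.L (379497), whose enzyme reactivates glucocorticoids, had 10.68 with pregnenolone, 11.04 with artemisinin and 11.29 with DMSO. It was 1.53-fold lower with pregnenolone and within 1.5-fold with artemisinin (-0.25). The gene hsd17b11.L (444739), named for a lipid droplet enzyme, had 8.69 with pregnenolone, 9.24 with artemisinin and 9.40 with DMSO, 1.64-fold lower with pregnenolone.

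The higher copy was hsd17b7.S (734717). Its enzyme reduces 3-ketosteroids in cholesterol synthesis in mammals. It had 9.51 with pregnenolone, 8.35 with artemisinin and 8.59 with DMSO, 1.89-fold higher with pregnenolone and -0.24 with artemisinin.

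The lower copy with artemisinin was hsd11b1l.2.S (399012), which had 7.25 with pregnenolone, 6.27 with artemisinin and 7.05 with DMSO, 1.71-fold lower. The related hsd11b1l.L had a difference of -0.55 and hsd11b1l.2.L gave 4.37 on all arrays. Copies for fatty acid enzymes stayed near DMSO. The very-long-chain fatty acid enzyme hsd17b12 had differences of 0.097 (.L) and -0.13 (.S) with pregnenolone, and of -0.18 (.L) and -0.34 (.S) with artemisinin. The peroxisomal hsd17b4.L differed by -0.20 with pregnenolone and -0.29 with artemisinin. The other copies were hsd11b2.L, hsd17b6.L, hsd17b10.L, hsd17b13.L and hsd17b14.L, with differences from -0.39 to 0.28. Of these, hsd11b2.L and hsd17b13.L lay below the median probe set.

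Of the 3 flavin monooxygenase copies, 1 was lower with pregnenolone, while 3.75% of all named copies were. The gene fmo5.2.S (398813) had 10.80 with pregnenolone, 11.58 with artemisinin and 11.81 with DMSO, 2.02-fold lower with pregnenolone and -0.23 with artemisinin. The copies fmo2.L and fmo5.1.L had differences between 0.00 and 0.24, and fmo5.1.L lay below the median probe set.

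Among 5 amine, pyrimidine and quinone oxidoreductases, dpyd.L (447312) was the one past 1.5-fold against DMSO. It encodes the first enzyme of pyrimidine breakdown, which in humans also clears fluoropyrimidine drugs. It had 6.64 with pregnenolone, 7.73 with artemisinin and 7.93 with DMSO, 2.46-fold lower with pregnenolone and -0.20 with artemisinin. The monoamine oxidase gene maoa.L had 9.75 with pregnenolone, 10.49 with artemisinin and 10.24 with DMSO. It stayed within 1.5-fold of DMSO in both comparisons (-0.49 with pregnenolone and 0.25 with artemisinin). The related maob.L was at 0.052 with pregnenolone and -0.26 with artemisinin. The quinone reductase nqo1.L, in mammals a target of the antioxidant regulator NRF2, had 5.31 with pregnenolone, 6.11 with artemisinin and 5.53 with DMSO. Its difference of 0.58 with artemisinin fell short of 1.5-fold, and its DMSO and pregnenolone values are below the median probe set. The aldehyde oxidase gene aox1.S gave 3.33 on all arrays.

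The hydrolases were 4 copies, all above the median probe set. All 4 differences were below 0 with pregnenolone, with a median of -0.48. Differences below 0 were common at this level, at 39 of the 62 members and 3057 of the 7480 named copies. With 4 copies, 2 of them copies of pon2, the shared sign says little about the family. Of these, 1 was past 1.5-fold, while 3.75% of all named copies were at least 1.5-fold lower. The lactonase gene pon2.S (432039) had 9.57 with pregnenolone, 10.22 with artemisinin and 10.49 with DMSO, 1.89-fold lower with pregnenolone. Its copy pon2.L had 10.14 with pregnenolone, 10.39 with artemisinin and 10.56 with DMSO, with a difference of -0.43, and a second probe set of that copy gave -0.40. The soluble epoxide hydrolase gene ephx2.L, which acts on fatty acid epoxides, had 11.50 with pregnenolone and 12.04 on the artemisinin and DMSO arrays. The microsomal epoxide hydrolase gene ephx1.L (432100) showed another order. It had 11.92 with pregnenolone, 11.32 with artemisinin and 11.99 with DMSO, 1.59-fold lower with artemisinin and -0.066 with pregnenolone. Its value rests on 1 probe set of the kind that matches several transcripts. In rodents this gene is induced by phenobarbital, a CAR activator.

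The cytochrome b5 symbols had 9 copies, 2 of which were higher with pregnenolone and 0 lower. Of all named copies, 4.64% were higher and 3.75% lower. With artemisinin 0 were past 1.5-fold in either direction, while 2.35% of all named copies were higher and 2.26% lower. The gene cyb5b.L (734366), the b5 of the mitochondrial outer membrane, had 10.59 with pregnenolone, 9.33 with artemisinin and 9.60 with DMSO. That is 1.99-fold higher with pregnenolone, the highest difference from DMSO with pregnenolone among the 77 members. Its copy cyb5b.S had 9.66 with pregnenolone, 9.22 with artemisinin and 9.27 with DMSO, a difference of 0.39. The reductase gene cyb5r2.S was at 0.50 with pregnenolone, and cyb5r3.L at -0.19. The microsomal cyb5a.L, which donates electrons to P450 enzymes, had 10.84 on all arrays. The other higher copy was cyb5d1.L, with 5.69 with pregnenolone, 5.41 with artemisinin and 5.08 with DMSO. Its mean lies below the median probe set. The symbols cyb561.L and cyb561d2.S match the name pattern but stand for cytochrome b561 proteins, and cyb5d1.L and cyb5d2.L for proteins with a b5-like domain. The differences of cyb561.L, cyb561d2.S and cyb5d2.L from DMSO were between -0.40 and 0.047 at the probe sets used. The second probe set of cyb561.L gave 0.83 with artemisinin, past 1.5-fold, and 1.14 for artemisinin over pregnenolone.

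Set directly against each other, the artemisinin array was the higher one more often. Of the 77 members, 12 were at least 1.5-fold higher with artemisinin than with pregnenolone, or 15.6%, while 3.89% of all named copies were. At least 1.5-fold lower were 6, or 7.79%, while 4.86% of all named copies were. At 2-fold, 5 were higher and 2 lower, while 1.4% and 1.23% of all named copies were. This comparison leaves out the DMSO array, and 0 of the 22 exocrine pancreas copies passed 1.5-fold in it. Of those 22, 15 had a mean below the median probe set, so this count says little about pancreas content. Of the erythrocyte markers, 5 of 10 were lower with artemisinin than with pregnenolone and 0 higher. Of the hepatocyte markers, 6 of 16 were higher and 2 lower. The part of these markers in the difference was not tested. The comparison shares its pregnenolone array with the one against DMSO, so its values are not a second measurement of the same differences.

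The highest members with artemisinin over pregnenolone were adh7.S (3.69-fold), dhrs13.L (3.21-fold), aldh4a1.L (2.73-fold), adh1b.L (2.32-fold) and dpyd.L (2.14-fold). Without the probe sets that may bind related transcripts the log2 difference of aldh4a1.L was 0.96. Another of its probe sets, at nearly the same mean level (7.43 beside 7.44), gave 1.93. The pregnenolone values of adh7.S and dhrs13.L lie below the median probe set. Next came nqo1.L (log2 difference 0.81), fmo5.2.S (0.78), maoa.L (0.74), aldh1a1.S (0.70), aldh1a1.L (0.67), pon2.S (0.65) and dhrs12.L (0.62). Of the oxidoreductases of amines, pyrimidines and quinones, 3 of 5 were thus higher, while 3.89% of all named copies were. This was the highest share among the 8 families, in a group of 5 unlike enzymes. It is named for its values, and the contrast says little about the family. The pregnenolone value of nqo1.L, 1 of the 3, lies below the median probe set. The lowest were cyb5b.L (2.39-fold lower), hsd17b7.S (2.24-fold lower), hsd11b1l.2.S (-0.98), aldh3a2.S (-0.77), aldh6a1.L (-0.75) and ephx1.L (-0.61). The difference of ephx1.L was -0.58 after quantile normalization and -0.56 after removal of a trend on mean level, short of 1.5-fold. As the mean of its probe sets aldh6a1.L was at -0.38.

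Both copies of a gene had a probe set for 10 genes, and both were above the median probe set for 8. The gap between the .L and the .S difference had a median size of 0.43 with pregnenolone and 0.48 with artemisinin (log2). Probe sets of 1 member copy also differed, with the SDs given below, so these gaps do not show that the copies diverged. Gaps were not taken for the other .L and .S pairs of the array. Whether the pairs named here differ from those was therefore not examined. With pregnenolone the gap reached 1.5-fold for aldh6a1 (0.76) and cyb5b (0.60), where the .L copy was the higher one. With artemisinin it reached 1.5-fold for aldh16a1, hsd11b1l.2 and rdh10. In these 3 the .L value was the same on the artemisinin and DMSO arrays, so the gap is that of the .S copy alone. For aldh1a1 both copies were at least 1.5-fold higher with artemisinin. Probes can bind the other copy, so a value may not belong to the copy it is assigned to.

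**Figure D4:**
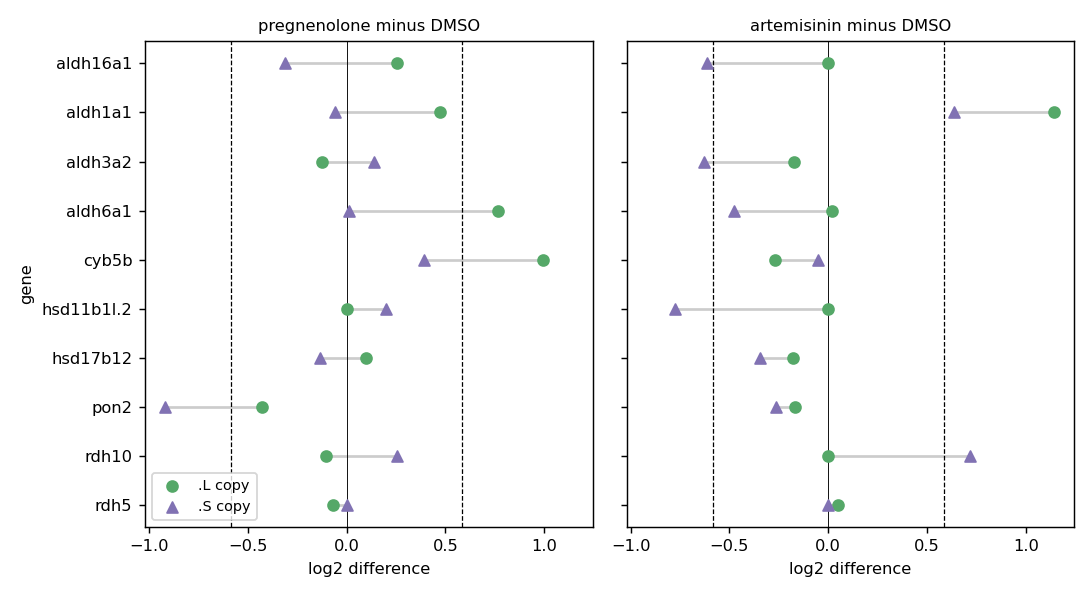
Log2 differences of the .L copy (circles) and the .S copy (triangles) of 10 genes, for pregnenolone minus DMSO and artemisinin minus DMSO; dashed lines mark 1.5-fold. For aldh1a1 both copies lie right of the line with artemisinin (1.14 and 0.64), and for pon2 both lie left of 0 with pregnenolone (-0.43 and -0.92).

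Several probe sets were present for 15 of the 77 copies. Among members with more than 1 probe set above the median probe set, 11 copies, the SD between probe sets of a copy was 0.456 for the pregnenolone difference and 0.254 for the artemisinin difference. Over 1289 named copies it was 0.275 and 0.223. This spread lies within the same arrays and leaves out variation between frogs. Some probe sets may bind related transcripts, so it may not be technical alone. For aldh4a1.L the 2 other probe sets above the median level were also past 1.5-fold with pregnenolone, and for aldh1a1.L the other one was past it with artemisinin. The 8 probe sets of cyb561.L ranged from -0.31 to 0.87 with pregnenolone and from -0.13 to 0.83 with artemisinin.

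**Figure D5:**
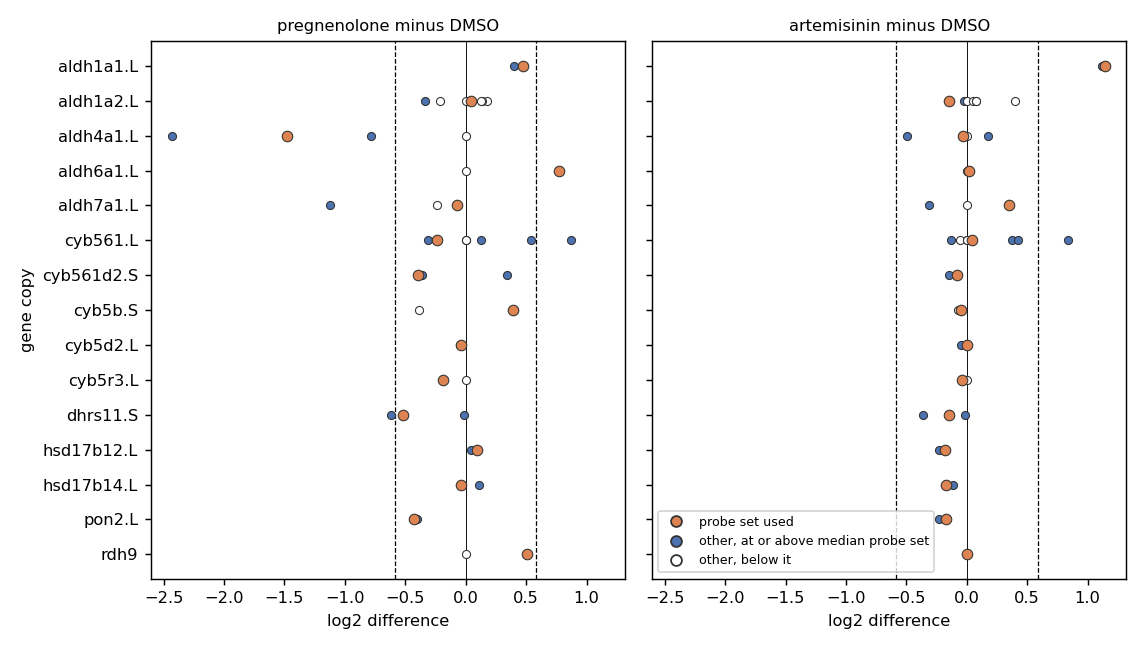
Log2 differences of every probe set of the 15 member copies that have more than 1, for pregnenolone minus DMSO and artemisinin minus DMSO; dashed lines mark 1.5-fold. The probe sets of aldh4a1.L spread from -2.43 to 0.00 with pregnenolone, while both probe sets of aldh1a1.L lie at 1.12 and 1.14 with artemisinin.

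Some members are neighbours in the genome. In the RefSeq gene table of Xenopus_laevis_v10.1, rdh16.L lies beside rdh7.L, and rdh9 beside hsd17b6.L, within a run of such genes on chromosome 2L that also holds rdh7.2.L. With pregnenolone their differences were -0.62 for rdh7.L, -0.23 for rdh16.L, -0.39 for hsd17b6.L, 0.51 for rdh9 and 0.00 for rdh7.2.L. Both rdh9 and rdh7.2.L lay below the median probe set. The genes adh1b.L and adh4.L are adjacent on chromosome 1L, maoa.L and maob.L on 2L, and cbr1.1.S and cbr1.2.S on 2S. Neighbours that are close relatives may share probes.

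Equal values on all 3 arrays were found for 9 of the 77 members, to 3 decimals, and 8 of them lay below the median probe set. Among all named copies 14.9% had equal values. Between the treated and the DMSO array alone, ties were more common, at 14 of 77 members with pregnenolone and 13 with artemisinin. Over all 11303 named copies there were 2768 ties with pregnenolone and 2726 with artemisinin, which place their median difference at 0.00. Copies above the median probe set were among them, such as aldh16a1.L and rdh10.L with artemisinin. Such a tie says that the summary of the probe set gave the same number, and not that the gene was measured without change.

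Other genes of drug metabolism were counted by symbol. Of 33 copies of CYP families 1 to 4, P450 reductase and the AKR1 aldo-keto reductases, 5 were higher by at least 1.5-fold with pregnenolone and 5 were lower. With artemisinin 6 were higher and 1 lower. Over all named copies the shares were 4.64% higher and 3.75% lower with pregnenolone, and 2.35% and 2.26% with artemisinin. The reductase por.L, which feeds electrons to P450 enzymes, had differences of 0.24 with pregnenolone and 0.055 with artemisinin. The aldo-keto reductase akr1c2.L had 8.05 with pregnenolone, 11.33 with artemisinin and 6.37 with DMSO. Past 2-fold among CYP genes were cyp2a6.1.S (1.70), cyp2a6.3.L (-1.34) and cyp4f2.L (-1.96) with pregnenolone. With artemisinin they were cyp2f1.S (2.44), cyp1a1.S (1.06) and cyp2j2.L (4.39). The copy cyp2j2.L had 3.52 with pregnenolone, 7.52 with artemisinin and 3.13 with DMSO, so its fold rests on a value near background. Of 39 copies matched by symbol as conjugating enzymes, 3 were higher and 7 lower with pregnenolone, and 3 were higher and 4 lower with artemisinin. The match took every nat symbol with a number, so it holds nat10.L and nat16.S, whose role in drug conjugation was not checked. The copy nat16.S is counted as lower in both comparisons and was the lowest of the list, at -3.17 with pregnenolone and -1.09 with artemisinin. For the 39 copies too the shares over all named copies given above are the background.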

How the data were processed

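Total RNA of liver was labelled from 6 ug per array. Per the submitters' processing notes, the authors used RMA (version not given in the sources used here). The deposited values were taken as log2, from the definition of RMA and their range. RMA makes the arrays' distributions alike, so a difference in total message is removed. Probe sets (32635, of which 96 are controls) were joined to the platform annotation: 15495 had 1 symbol, 279 several and 16765 none. All 77 member copies matched the RefSeq table by Entrez identifier with the same symbol. No sequences are shown. The number of arrays limits precision. Differences were taken with pandas 2.3.3 and counted at 1.5-fold. With 1 array per group no test was run. Members named are those past 1.5-fold in any comparison, their other copy, the 2 copies with the highest mean in each family and those needed to describe a family. The members and lists were chosen with earlier results of these data known. The code was checked on simulated data with little noise and differences well past 1.5-fold. That check does not bear on the error of the real values. Alternatives were a 2-fold threshold, a level filter, median centring, quantile normalization and a lowess trend removed (span 0.3, statsmodels 0.14.6). Others were the mean over probe sets, no probe sets that match several transcripts, and no cyb561 or cyb5d symbols. Leaving out copies with equal values on all arrays was chosen after seeing the data.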

Additional observations from a re-analysis of the deposited data

How the results depend on the processing

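With 1 pooled array per group, no array could be left out and no value rests on more than 1 pool. No paired analysis was possible because each group is 1 sample and no test was run. A pseudocount did not apply to log2 values. At a 2-fold threshold 0 members were higher and 5 lower with pregnenolone, 1 higher and 0 lower with artemisinin, and 5 higher and 2 lower with artemisinin over pregnenolone. These counts are smaller by construction. Those for pregnenolone against DMSO also depend on fmo5.2.S and cyb5b.L, which lay close to 2-fold and crossed that threshold after median centring. Without the probe sets that match several transcripts 2 members were lower with artemisinin, since aldh16a1.S and ephx1.L have no other probe set. In that setting 5 members were higher with artemisinin, with the second probe set of cyb561.L in use. With the level filter the median for artemisinin over pregnenolone was 0.15. Every other count of members stayed within 1.5 times its value. Every other median moved by no more than 0.1, but that margin is larger than the medians themselves, so it does not show that they were stable. With the level filter the median was -0.12 for pregnenolone (-0.059 without it) and -0.11 for artemisinin (-0.0078 without it). Differences were set against 0.275, the largest SD between probe sets over all named copies. The SD over the members was larger for pregnenolone, at 0.456. Of the 81 differences of the 27 members past 1.5-fold, all moved by no more than 0.275 under median centring, quantile normalization or removal of the trend. The arrays were already alike after RMA, with medians between 5.60 and 5.62, so these settings could move values only a little. The small moves therefore do not show that the differences were stable. The choice of probe set could change only aldh1a1.L, aldh4a1.L and aldh6a1.L among the 27 members. For these, 4 of 9 differences moved by more than 0.275 with the mean of probe sets. Without the probe sets that match several transcripts 2 of 9 did. Of the differences past 1.5-fold, 0 changed sign, which would have taken a move of more than 1.5-fold. As the mean of its probe sets aldh6a1.L was at 0.38 with pregnenolone, because its second probe set is at background.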
